A study of Mus musculus with 9 samples.

Results

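The JAK-STAT pathway carries signals from cytokine receptors to the nucleus. A cytokine brings its receptor chains together, Janus kinases bound to the chains are switched on, and they phosphorylate STAT proteins, which pair, enter the nucleus and drive transcription. Among the genes switched on are those of the SOCS family, whose products bind the receptor or the kinase and shut the signal down, so that their transcripts report on recent signalling as well as limiting it. In monocytes and macrophages STAT3 carries the anti-inflammatory signal of IL-10 and the signal of IL-6, STAT6 carries that of IL-4 and IL-13, STAT5 that of GM-CSF, and STAT2 that of type I interferon.

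The genes examined were the kinase gene Jak2, the STAT genes Stat2, Stat3, Stat5a, Stat5b and Stat6, and the feedback genes Socs1, Socs3 and Cish. They were taken by name as members of the pathway, with earlier results of these data known, and these 9 symbols each matched 1 row among the 46072 genes of the deposited tables, of which 26108 were above 0 in at least 1 library. All 9 were above 0 in each of the 9 libraries, and all had an adjusted p in the fit reported here. Cish, at a mean of 0.856 FPKM, was left out of 1 alternative that asked for a mean of at least 1.

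RNA was sequenced from splenic monocytes of young adult female C57BL/6 mice, 3 mice in each of 3 groups, with no stimulation outside the animal. Con mice received water by gavage over 6 days. Van mice received vancomycin, an antibiotic that is poorly absorbed from the gut, over 6 days at a daily 2 mg per animal in 2 doses of 1 mg. VanLip mice had the same vancomycin course and then L654, a serine-glycine lipid purified from the Bacteroidota species Porphyromonas gingivalis and known as a ligand of TLR2, injected behind the eye on days 7, 9 and 11. The labels give a rest without antibiotic of 6 to 8 days, the sequenced cells being collected after day 8 of it, and no lipid for Con and Van. The methods describe PBS as the vehicle control of the L654 injections, but the labels do not say whether these Con and Van mice received it. If they did not, injection and handling differed along with the lipid in the comparisons with VanLip. No group received L654 without vancomycin, so an effect of the lipid alone could not be examined. The cells were enriched magnetically by negative selection, so other spleen cells could remain among them, and in such bulk RNA fewer cells of a type and less RNA per cell cannot be told apart.

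Library totals of expected counts were 43070361 to 61383806 in Con and Van and 170503470 to 184720704 in VanLip. The commonest low count, the value of 1 read, was 1.33 in the Con and Van libraries and 2.00 in the VanLip libraries, from which reads of 100 and 150 bases were inferred. The stated read length is 100 bases for all libraries, so the longer reads of VanLip are an inference from its counts. Depth, and read length if that inference holds, cannot be told apart from the VanLip group. Summed FPKM (fragments scaled to transcript length and to the fragments mapped in the library) of 10 monocyte markers was 10016 to 10480 in Con, 8695 to 10409 in Van and 10211 to 11538 in VanLip. Lyz2 made up most of that sum, and single monocyte markers moved with the groups: Ccr2 was 158.6 to 173.4 FPKM in Con, 70.4 to 98.2 in Van and 156.1 to 256.3 in VanLip. Itgam (200.1 to 214.2 in Con, 173.9 to 182.8 in Van) and Fcgr1 (23.8 to 25.1 in Con, 19.1 to 20.7 in Van) were also lower in each Van library than in each Con library. Others of the 10 leaned the other way with overlapping groups, Treml4 at 214.1 to 236.7 in Con and 233.2 to 283.3 in Van and Ace at 403.5 to 553.9 in Con and 502.0 to 639.2 in Van. Cx3cr1 was 129.6 to 166.3 in VanLip, above Con (116.1 to 124.7) and Van (91.5 to 117.2). Ly6c2 was 399.2 to 451.1 in VanLip, above Van (268.4 to 387.9) and overlapping Con (377.2 to 413.9). No marker of the 10 was lower in each VanLip library than in each Con or each Van library. Sums were at most 17.7 for 6 B cell markers, 16.8 for 6 T cell markers, 6.68 for 6 NK cell markers and 36.8 for 7 neutrophil markers, among which Ly6g was at 0 in each library. Erythroid markers moved with the groups, since the 4 genes summed to 56.8 to 114.4 in Con, 188.8 to 429.5 in Van and 154.9 to 639.6 in VanLip, with none at 0. The 5 macrophage markers summed to 647.3 to 786.8 in Con, 823.5 to 1048 in Van and 629.6 to 878.4 in VanLip, with no overlap between Con and Van. Sums were 31.4 to 46.6, 30.4 to 39.9 and 24.1 to 37.1 for 5 dendritic cell markers and 10.5 to 21.7, 9.51 to 12.5 and 4.65 to 11.9 for 4 platelet markers, in the order Con, Van, VanLip. The part of these markers in the results given here was not tested.

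The genes lie on 5 chromosomes of the GRCm38 assembly, with coordinates from GENCODE release M21. The loci Stat5b (chr11:100780731-100850724), Stat5a (chr11:100859351-100885169) and Stat3 (chr11:100885098-100939540) stand side by side. Stat5a and Stat5b lie 8626 bases apart on opposite strands, and the ends of Stat5a and Stat3 share 72 exonic bases on opposite strands. Stat6 (chr10:127642986-127660957) shares 40 exonic bases with Nab2 on the other strand, and Stat2 lies at chr10:128270559-128292849. Jak2 lies at chr19:29251828-29313080, Socs1 at chr16:10782240-10785536, Socs3 at chr11:117966079-117970047 and Cish at chr9:107296026-107302784. Cish shares 261 exonic bases with Gm17040 and 479 with Gm17041, both on the opposite strand. The strand setting of the counting is not given in the sources used here, so reads in these overlaps may be exchanged between the genes. Of the windows of 100 bases in their transcripts, 265 are common to Stat5a and Stat5b, 3.44% of those of Stat5a and 4.79% of those of Stat5b, and the split of reads between this pair is uncertain to that extent.

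Promoters were read for the letters that STAT proteins bind, because SOCS genes are textbook STAT targets. RefSeq windows on GRCm38.p6, from 250 bases before to 50 bases after the transcript start, were searched on both strands for TTCNNNGAA, the common STAT half-sites, for the same TTC and GAA with 4 bases between them, the wider spacing known for STAT6, and for GAAA followed after 2 bases by GAAA, the core that the interferon complex with STAT2 reads. TTCNNNGAA stood in the windows of Socs3 and Cish and in 8.3% of all 32851 windows. The wider STAT spacing stood in that of Stat2 and in 6.95% of all, and the interferon core in those of Stat2 and Socs1 and in 3.44% of all. The stretch of 30 bases holding the matches follows for each of these 4 genes, 5′ to 3′ along the gene's strand with the matched bases in capitals, because they show where the feedback genes and Stat2 carry such letters.
Socs3, minus strand, chr11:117969501-117969530: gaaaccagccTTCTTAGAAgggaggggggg
Cish, plus strand, chr9:107296654-107296683: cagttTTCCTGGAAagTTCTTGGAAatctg
Socs1, minus strand, chr16:10785597-10785626: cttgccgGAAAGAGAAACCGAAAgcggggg
Stat2, plus strand, chr10:128270272-128270301: ctggTTTCAGTTTCctTTCCCTAGAActca
The Socs3 match began 154 bases before the transcript start and the 2 matches of Cish lay within the first 20 bases of the transcript. The 2 matches of Socs1 overlapped and began 83 bases before the start. In Stat2 the first capitals are the interferon core read on the other strand, beginning 222 bases before the start, and the second are the wider STAT spacing. RefSeq and GENCODE place some starts differently, so the Socs3 and Cish stretches lie inside the GENCODE extent of those genes. A match is a description of letters and not evidence of binding in these cells.

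Levels differed widely between the 9 genes, and the order was much the same in the groups. Levels were compared between genes in FPKM, which is per length. In Con the mean was 103.4 ± 1.93 for Stat3 and 82.8 ± 0.861 for Stat6 (SD, n = 3). Then came Socs3 at 53.8 ± 6.33, Stat5b at 41.1 ± 1.12, Stat2 at 30.8 ± 2.18, Jak2 at 30.8 ± 2.33, and Stat5a at 16.2 ± 0.649. Socs1 at 2.56 ± 0.864 and Cish at 0.942 ± 0.399 were far below the other feedback gene, Socs3. The ranges of Stat2 and Jak2 overlapped in Con, and those of the other neighbours in this order did not.

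In Van the order from the top was again Stat3 (109.7 ± 6.38), Stat6 (93.3 ± 2.03), Socs3 (53.7 ± 3.47) and Stat5b (38.6 ± 1.22), and Jak2 (27.0 ± 2.34) and Stat2 (25.7 ± 1.38) again overlapped (SD, n = 3). In VanLip Stat6 (86.5 ± 1.09), Stat3 (86.1 ± 5.66) and Socs3 (78.6 ± 13.1) had overlapping ranges, so that in FPKM Stat3 no longer stood above these genes. The place of Stat3 depended on the length measure. By normalized counts per kilobase of exon, Stat6 and Socs3 stood above Stat3 in Con and Van as well as in VanLip. Stat5a, Socs1 and Cish closed the order in Van at 14.9, 2.90 and 0.841 and in VanLip at 15.5, 2.79 and 0.785. By the mean over all libraries Stat3 ranked 623, Stat6 699 and Socs3 1037 among the 26108 genes above 0, whereas Socs1 ranked 9384 and Cish 12048. Of the 9 genes 7 reached 10 FPKM in every library, and the other 2, Socs1 and Cish, stayed under 4.

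**Figure D1:**
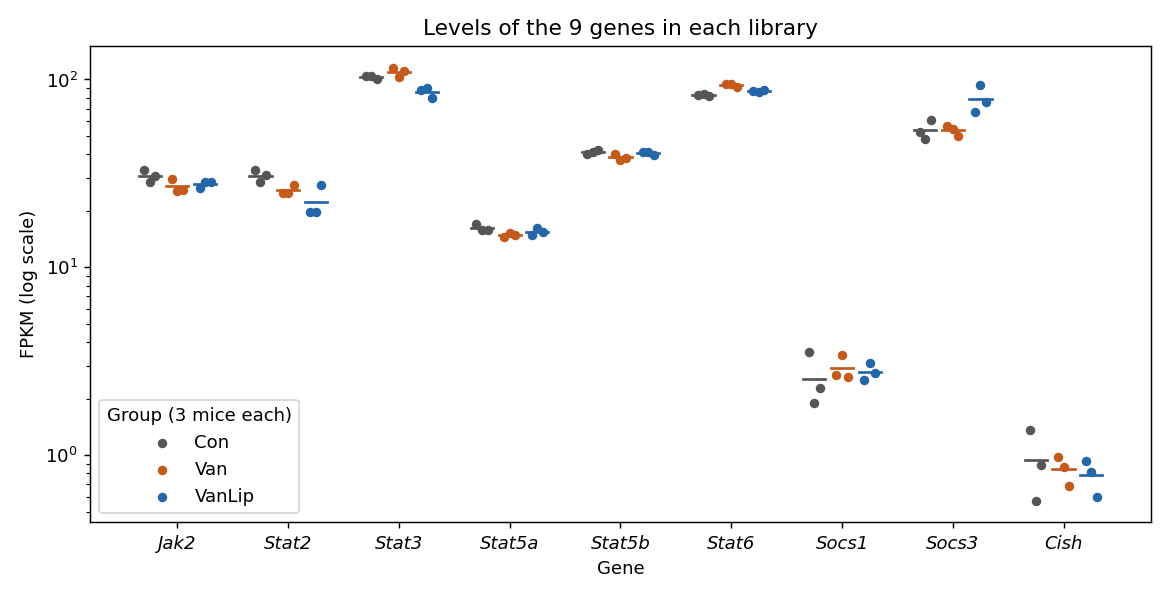
FPKM on a log scale (vertical axis) of the 9 genes (horizontal axis) in the 3 mice of each group, one point per library with a line at the group mean. Stat3 sits below its Con and Van points and Socs3 above them in each VanLip library, while Socs1 and Cish stay under 4 throughout.

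Differences between groups were tested on the expected counts with the Wald test of DESeq2, with Benjamini-Hochberg adjustment over all genes, and genes at an adjusted p no higher than 0.05 count as called. Values per library in the next paragraphs are counts divided by the size factor of the library, called normalized counts, and differences are log2 fold changes. Between Van and Con 1 of the 9 genes was called, where 4.34% of all 18516 genes with an adjusted p were. Between VanLip and Con 3 were called (6.67% of 16552 genes), and between VanLip and Van 2 (9.86% of 18025 genes). Groups did not overlap for 4, 5 and 3 of the 9 genes in these comparisons, where the shares over 13503 genes with a mean of at least 50 were 24.1%, 24.5% and 28.6%. The median log2 fold change of the 9 was -0.11, -0.10 and -0.07, against -0.01, 0.01 and 0.01 over all genes tested.

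**Figure D2:**
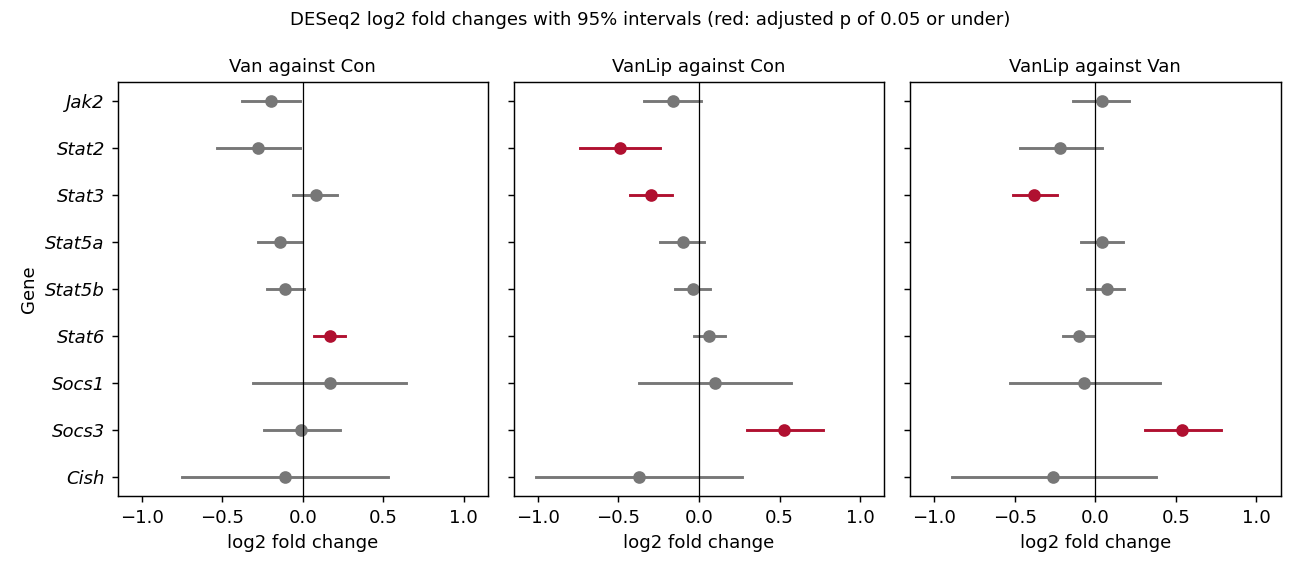
Log2 fold changes (horizontal axis) of the 9 genes (vertical axis) in the 3 comparisons, with 95% intervals from the DESeq2 standard errors and red where the adjusted p was 0.05 or under. Stat6 is red for Van against Con, Stat2, Stat3 and Socs3 for VanLip against Con, and Stat3 and Socs3 for VanLip against Van.

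Socs3, which encodes an inhibitor that binds gp130-type receptors and JAK kinases and cuts short IL-6 signalling, was highest in VanLip. Its normalized counts were 12854, 11775 and 14470 in Con and 13824, 12925 and 12112 in Van. In VanLip they were 16329, 22013 and 18249, each above all 6 other libraries. Con and Van were interleaved. Socs3 rose by 0.53 in VanLip against Con (SE 0.12, DESeq2 adjusted p = 0.000513) and by 0.54 against Van (SE 0.12, DESeq2 adjusted p = 0.000235), which are ratios of 1.45 and 1.46. Between Van and Con the difference was -0.01, with a 95% interval of -0.24 to 0.23. The rise against Van was 0.42 to 0.64 over 20 alternatives and was called in 18 of them, the exceptions being limma on log2 FPKM with a pseudocount of 1 (adjusted p = 0.0652) or 0.1 (adjusted p = 0.077). The rise against Con lost its call in the 3 limma settings, at adjusted p of 0.115, 0.128 and 0.0558. It was largest without VanLip replicate 1 (0.63) and smallest without VanLip replicate 2 (0.41), and was called without any single library.

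Stat3, the STAT that IL-6 and IL-10 activate, was lowest in VanLip. Normalized counts were 38817, 37399 and 37669 in Con, 43177, 37357 and 39573 in Van, and 30629, 31863 and 29979 in VanLip. The VanLip libraries were all below the other 6, and Con and Van overlapped. The gene fell by 0.38 in VanLip against Van (SE 0.07, DESeq2 adjusted p = 2.39e-06) and by 0.30 against Con (SE 0.07, DESeq2 adjusted p = 0.000653). In percent it was 23% and 18.8% lower. The difference from Van was called in 20 of 20 alternatives, at -0.42 to -0.32 and an adjusted p of at most 0.0442. That from Con was called in 17 of 20, with adjusted p of 0.0684, 0.107 and 0.0529 in the limma settings. Between Van and Con the difference was 0.08 (95% interval -0.06 to 0.21, DESeq2 adjusted p = 0.712).

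Socs3 and Stat3 thus differed in opposite directions in VanLip, and their ratio within a library, which was chosen after their values were seen and is given without a test, needs no scaling between libraries. The FPKM of Socs3 over that of Stat3 was 0.503, 0.461 and 0.6 in Con, 0.490, 0.528 and 0.452 in Van, and 0.761, 1.03 and 0.954 in VanLip. The means were 0.521 ± 0.0714, 0.490 ± 0.0382 and 0.914 ± 0.137 (SD, n = 3). Each VanLip library lay above each Con and Van library.

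**Figure D3:**
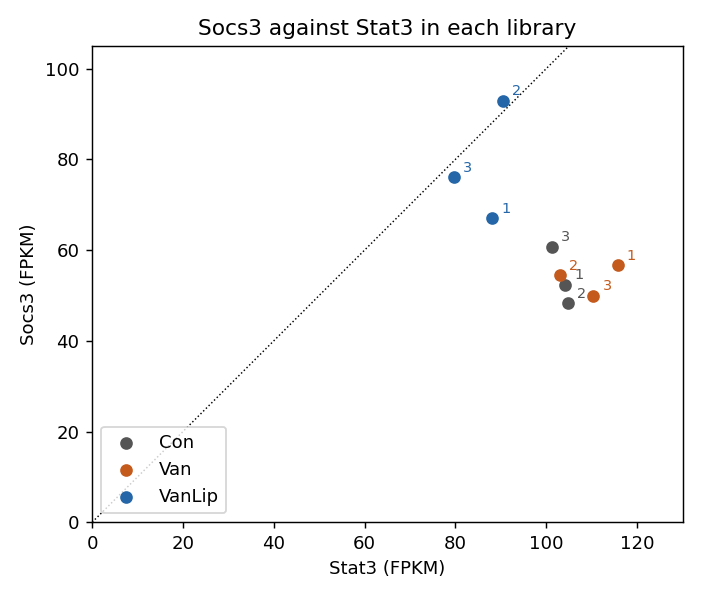
Socs3 (vertical axis) against Stat3 (horizontal axis) in FPKM, one point per library labelled with its replicate number, with a dotted line where both are equal. The 3 VanLip libraries lie near the line, at ratios of 0.761 to 1.03, and the 6 Con and Van libraries well under it, at 0.452 to 0.6.

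Stat2, which acts in the complex that type I interferon forms, was highest in Con. Its normalized counts were 14026, 12130 and 12809 in Con, 10468, 10277 and 11456 in Van, and 8277, 8060 and 11392 in VanLip. No Van or VanLip library reached the Con range, and VanLip replicate 3 stood among the Van libraries while the other two stood below them. Stat2 fell by 0.49 in VanLip against Con (SE 0.13, DESeq2 adjusted p = 0.00545). The call was lost with edgeR (adjusted p = 0.0857), with the 3 limma settings, without Con replicate 1 (-0.43, adjusted p = 0.0711) and without VanLip replicate 2 (-0.40, adjusted p = 0.0628). For Van against Con the log2 fold change was -0.28 (95% interval -0.53 to -0.02, DESeq2 adjusted p = 0.275), with a call when only those 2 groups were fitted (adjusted p = 0.011) or VanLip replicate 3 was left out (adjusted p = 0.0142). VanLip against Van gave -0.22 (95% interval -0.47 to 0.04, DESeq2 adjusted p = 0.35), and it was -0.14 (adjusted p = 0.651), -0.13 (adjusted p = 0.711) and -0.39 (adjusted p = 0.000315) without VanLip replicates 1, 2 and 3.

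Stat6, the STAT of IL-4 and IL-13 signalling, was the 1 gene of the 9 called between Van and Con. Normalized counts were 28133, 28778 and 27600 in Con, 32400, 31464 and 31071 in Van, and 29666, 28881 and 29764 in VanLip. The 3 groups did not overlap, with VanLip between the others. Stat6 rose by 0.17 in Van against Con (SE 0.05, DESeq2 adjusted p = 0.016), which is 12.3% higher. This call rested on the full set of libraries, since it was lost without any 1 of the 6 Con and Van libraries (adjusted p of 0.0585 to 0.18), with edgeR (adjusted p = 0.123), with the replicate number as a block (adjusted p = 0.144) and with the 3 limma settings. The size itself stayed at 0.15 to 0.18 over the alternatives. VanLip differed from Con by 0.06 (95% interval -0.03 to 0.16, DESeq2 adjusted p = 0.52) and from Van by -0.10 (95% interval -0.20 to -0.01, DESeq2 adjusted p = 0.161).

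Stat5a and Stat5b, the closely related STATs of GM-CSF signalling, were called in no comparison. Normalized counts of Stat5a were 6030, 5618 and 5501 in Con, 5077, 5096 and 5369 in Van, and 5129, 5535 and 5304 in VanLip. Those of Stat5b were 19861, 20060 and 20373 in Con, 19583, 17767 and 18629 in Van, and 20097, 19507 and 19065 in VanLip. For both genes each Van library was below each Con library, and VanLip overlapped both groups. The Van against Con values were -0.14 (95% interval -0.28 to -0.01, DESeq2 adjusted p = 0.29) for Stat5a and -0.11 (95% interval -0.22 to 0.01, DESeq2 adjusted p = 0.383) for Stat5b. Against Van, VanLip differed by 0.04 (95% interval -0.09 to 0.17) and 0.07 (95% interval -0.05 to 0.18). Stat5b was the more abundant per length, and its FPKM over that of Stat5a averaged 2.54 ± 0.155 for Con, 2.59 ± 0.139 for Van and 2.63 ± 0.13 for VanLip (SD, n = 3).

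Over the 5 STAT genes together, FPKM summed to 272.5 to 277.0 in Con, 275.3 to 289.4 in Van and 249.5 to 252.7 in VanLip. Stat3 made up 37.1% to 38.3% of that sum in Con, 37.4% to 40% in Van and 31.9% to 35.8% in VanLip. The share of Stat6 was 29.8% to 30.6% in Con, 32.3% to 34.3% in Van and 33.8% to 35.0% in VanLip. The ratio of Stat3 to Stat6 was 1.25 ± 0.0144 in Con, 1.18 ± 0.0747 in Van and 0.995 ± 0.0757 in VanLip (mean ± SD, n = 3). These sums and ratios were formed after the values were seen and carry no test.

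Jak2, the kinase of the GM-CSF and interferon gamma receptors, was called in no comparison. Its normalized counts were 16054, 13765 and 14628 in Con, 14347, 12023 and 12339 in Van, and 12824, 13462 and 13460 in VanLip. Each VanLip library was below each Con library by a small margin in counts but not in FPKM, and the Van libraries spanned the VanLip range. The log2 fold change was -0.20 in Van against Con (95% interval -0.38 to -0.02, DESeq2 adjusted p = 0.242), -0.16 in VanLip against Con (95% interval -0.34 to 0.01, DESeq2 adjusted p = 0.325) and 0.04 in VanLip against Van (95% interval -0.14 to 0.21). Without Van replicate 1 the Van against Con value was -0.28 and was called (adjusted p = 0.0283).

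Socs1 and Cish, which encode an inhibitor of the JAK kinases of the interferon receptors and an inhibitor of STAT5 signalling, had wide intervals in each comparison. Socs1 counts were 416.9, 221.5 and 261.7 in Con, 314.8, 389.1 and 306.1 in Van, and 295.8, 352.7 and 316.3 in VanLip. Cish counts were 461.7, 197.5 and 285.8 in Con, 371.1, 287.1 and 215.4 in Van, and 294.9, 255.3 and 181.3 in VanLip. Con replicate 1 held the highest value of both genes, and Con overlapped Van and VanLip throughout. VanLip against Con gave 0.10 for Socs1 (95% interval -0.37 to 0.57) and -0.37 for Cish (95% interval -1.01 to 0.27). Van against Con gave 0.17 (95% interval -0.31 to 0.64) and -0.11 (95% interval -0.75 to 0.53). For VanLip against Con the interval of Socs1 thus includes the rise measured for Socs3, and that of Cish does not, but a difference between the genes was not tested. The coefficient of variation of normalized counts within Con was 34.4% for Socs1 and 42.7% for Cish, against 1.28% to 10.4% for the other 7 genes. In Van it was 13.5% for Socs1 and 26.8% for Cish and in VanLip 8.96% and 23.6%, where Stat2 (20.2%) and Socs3 (15.3%) varied more than Socs1.

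The genes whose pattern over the 9 libraries was most like that of a called gene were found among 13503 genes by the mean absolute difference of z-scored log2 normalized counts, where 0 is an identical pattern. For Socs3 these were Tspyl3 (0.18), Tmem134 (0.217) and Sec13 (0.227). For Stat3 they were Aff1 (0.134), R3hdm1 (0.137) and Gm20784 (0.167). Stat2 was nearest to Etnk1 (0.134), Parp14 (0.216) and Naa25 (0.23), and Stat6 to Vezt (0.226), Nop16 (0.242) and Nfix (0.256). Among the 9 genes themselves the closest pairs were Stat5a with Jak2 (0.583) and Stat5b with Jak2 (0.602), and the farthest was Stat3 with Socs3 (1.61). These are descriptions over libraries that share group and depth.

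The rest of the pathway was described with 10 lists of its ligands, receptors, regulators and target genes. Of those genes with an adjusted p, 5 of 107 were called in Van against Con, 9 of 103 in VanLip against Con and 14 of 107 in VanLip against Van, or 4.67%, 8.74% and 13.1%. Over all genes the shares were 4.34%, 6.67% and 9.86%.

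The other kinase genes, Jak1, Jak3 and Tyk2, and Stat4 were called in no comparison by DESeq2 or edgeR. Jak1 was at 63.9 ± 1.75 FPKM in Con, 65.8 ± 2.02 in Van and 62.4 ± 2.11 in VanLip, and Tyk2 at 31.1 ± 1.79, 32.9 ± 1.27 and 33.1 ± 1.63 (SD, n = 3). The log2 fold changes of the 3 kinase genes were between -0.08 and 0.07 over the 3 comparisons and those of Stat4 between -0.19 and 0.11, and 0 of these 4 genes had an unadjusted p under 0.05.

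Among 12 type I interferon target genes, 11 had a log2 fold change below 0 in Van against Con, with a median of -0.34, 3 had an unadjusted p under 0.05 (11.1% of all genes) and 1, Mx1, was called. Mx1, an antiviral GTPase, fell by 0.41 in Van (SE 0.13, DESeq2 adjusted p = 0.0403), a call that 8 of 20 alternatives kept. In VanLip against Con 11 of 12 were again below 0 with a median of -0.24, and DESeq2 and edgeR both called 0 of them, with 2 at an unadjusted p under 0.05 (13% of all genes). Both comparisons share the Con libraries. Between VanLip and Van the median was 0.05, with 0 calls by either tool and 1 gene at an unadjusted p under 0.05 (15.5% of all genes). With edgeR Mx1 was not called either.

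Of 30 receptor genes 2 rose in Van against Con, and 10 had an unadjusted p under 0.05, against 11.1% of all genes. Lifr, the receptor of leukemia inhibitory factor, rose by 1.16 (SE 0.20, DESeq2 adjusted p = 1.05e-06), from 3096 ± 239.9 to 6931 ± 1156 normalized counts (SD, n = 3), and was called in 17 of 20 alternatives. Csf3r, the G-CSF receptor, rose by 0.22 (DESeq2 adjusted p = 0.0475), and this was called in 6 of 20 alternatives. The ligand gene Lif fell by 0.68 in the same comparison (SE 0.16, DESeq2 adjusted p = 0.001), from 827.2 ± 85.3 to 514.5 ± 59.4, and was 1 of 12 ligands with an adjusted p. With limma on log2 FPKM plus 1 its value was -0.29 and was not called (adjusted p = 0.491). Lif rose by 0.45 in VanLip against Van (DESeq2 adjusted p = 0.0383), which 5 of 20 alternatives called.

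In VanLip 1 chain of the receptor of IL-10, a main activator of STAT3, was lower, while the other, Il10rb, was not called (0.10 against Con, 0.00 against Van). Il10ra fell by 0.50 against Con (SE 0.09, DESeq2 adjusted p = 1.25e-06), from 67993 ± 1054 to 48220 ± 1034 normalized counts (SD, n = 3), and by 0.28 against Van (DESeq2 adjusted p = 0.0164). The Con comparison was called in 19 of 20 alternatives and the Van comparison in 13, at -0.33 to -0.18, the smallest without Van replicate 1. Il6st, which encodes gp130, the shared signalling chain of the IL-6 family, fell by 0.33 against Van (SE 0.09, DESeq2 adjusted p = 0.00503). This was called in 17 of 20 alternatives and lost in the 3 limma settings. Against Con Il6st was at -0.10 (DESeq2 adjusted p = 0.603), with mean FPKM of 16.5 in Con, 19.5 in Van and 15.3 in VanLip. Ifngr1, a chain of the interferon gamma receptor, rose by 0.19 against Con (DESeq2 adjusted p = 0.0114) and Il7r fell by 0.70 (DESeq2 adjusted p = 0.0101), called in 10 and 12 of 20 alternatives. In all, 1 receptor rose and 2 fell of 29 against Con, and 1 rose and 4 fell of 30 against Van. Unadjusted p under 0.05 was found for 5 of 30 receptors against Con and 7 against Van, beside 13% and 15.5% of all genes. Outside the naming rule, and named after their values were seen, the other 2 that fell against Van were Lifr (-0.60, DESeq2 adjusted p = 0.0261) and Il6ra (-0.24, DESeq2 adjusted p = 0.0182). Neither was called against Con, with Lifr at 0.56 (DESeq2 adjusted p = 0.0578) and Il6ra at -0.08 (DESeq2 adjusted p = 0.616). The 1 that rose against Van was Osmr, which was listed at 0 FPKM in Van and averaged 0.0192 in VanLip, so no size is given.

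Negative regulators other than the SOCS members described above showed both directions. Ptpn6, which encodes the phosphatase SHP-1, rose in VanLip by 0.44 against Van (SE 0.07, DESeq2 adjusted p = 6.61e-08) and by 0.29 against Con (SE 0.07, DESeq2 adjusted p = 0.00176). Its normalized counts were 49573 ± 1856 in Con, 44804 ± 68.4 in Van and 60748 ± 4749 in VanLip (mean ± SD, n = 3). Ptpn11, which encodes SHP-2, rose by 0.45 against Van (SE 0.08, DESeq2 adjusted p = 3.33e-06), and both rises against Van were called in 20 of 20 alternatives. Against Con the Ptpn6 rise was called in 16 of 20 and lost with edgeR and the 3 limma settings. Ptpn11 was not called against Con (0.22, DESeq2 adjusted p = 0.075). Socs6 fell by 0.38 in Van against Con (DESeq2 adjusted p = 0.0047), at -0.46 to -0.21 over the alternatives, and lost the call with edgeR, the 3 limma settings and without Van replicate 2. It rose by 0.30 in VanLip against Van (DESeq2 adjusted p = 0.0256), called in 10 of 20 alternatives and as small as 0.03 in one. Socs7 fell by 0.27 in VanLip against Con (DESeq2 adjusted p = 0.00586), called in 13 of 20 alternatives and not when VanLip was thinned to the depth of the other libraries. Of 16 such genes 1 was called in Van against Con, 2 in VanLip against Con and 4 in VanLip against Van. Unadjusted p under 0.05 was found for 5, 6 and 7 of the 16 in that order, against 11.1%, 13% and 15.5% of all genes. Of the 4 genes of the ubiquitin ligase that works with the SOCS box DESeq2 and edgeR called 0, and 1 had an unadjusted p under 0.05 in each comparison with VanLip.

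Targets of STAT3, STAT5 and STAT6 gave few calls. Of 10 STAT3 targets 1 rose in VanLip against Con, Hp, the haptoglobin gene, by 0.63 (DESeq2 adjusted p = 0.00299), and 1 rose against Van, Junb, by 0.33 (DESeq2 adjusted p = 0.0283). Hp was called in 16 of 20 alternatives and Junb in 9. Unadjusted p under 0.05 was found for 5 of the 10 in VanLip against Con and 4 in VanLip against Van, against 13% and 15.5% of all genes, in both directions (against Con, Lcn2 was at 1.41 with DESeq2 adjusted p = 0.072 and Vegfa at -1.02 with DESeq2 adjusted p = 0.0589, both named after their values were seen). Of 8 STAT5 targets 1, Id1, rose in VanLip against Con by 0.97 (DESeq2 adjusted p = 0.0264) with overlapping groups, called in 11 of 20 alternatives. Of these 8, 2, 2 and 3 had an unadjusted p under 0.05 in Van against Con, VanLip against Con and VanLip against Van, against 11.1%, 13% and 15.5% of all genes. Of 8 STAT6 targets DESeq2 and edgeR called 0 in the 3 comparisons, with 2 at an unadjusted p under 0.05, both in VanLip against Con. With edgeR the STAT3 and STAT5 targets had 0 calls too.

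Immediate early genes, which respond within minutes to handling and stimulation, included 3 that fell in VanLip against Van. Atf3 fell by 0.55 (SE 0.10, DESeq2 adjusted p = 1.01e-06), Fosb by 0.45 (DESeq2 adjusted p = 0.000355) and Jun by 0.54 (DESeq2 adjusted p = 0.00313), and Junb rose as given above. The Fosb fall was called in 19 of 20 alternatives and the Jun fall in 16, lost with edgeR and the 3 limma settings. Neither was called against Con, with Fosb at -0.28 (DESeq2 adjusted p = 0.065) and Jun at -0.25 (DESeq2 adjusted p = 0.338). Against Con, Atf3 fell by 0.61 (SE 0.10, DESeq2 adjusted p = 4.95e-08) and Egr1 by 0.59 (DESeq2 adjusted p = 0.0232) with overlapping groups, of 10 genes. The Atf3 values were called in 20 of 20 alternatives, and that of Egr1 in 10, at -0.79 without Con replicate 1 to -0.36 without Con replicate 2, with the call lost without 5 of the 9 single libraries and with edgeR. Summed FPKM of the 10 was 4792 to 6498 in Con, 5271 to 5739 in Van and 4775 to 5485 in VanLip. Socs3 is itself quickly induced, and the part of handling in its difference was not tested.

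**Figure D4:**
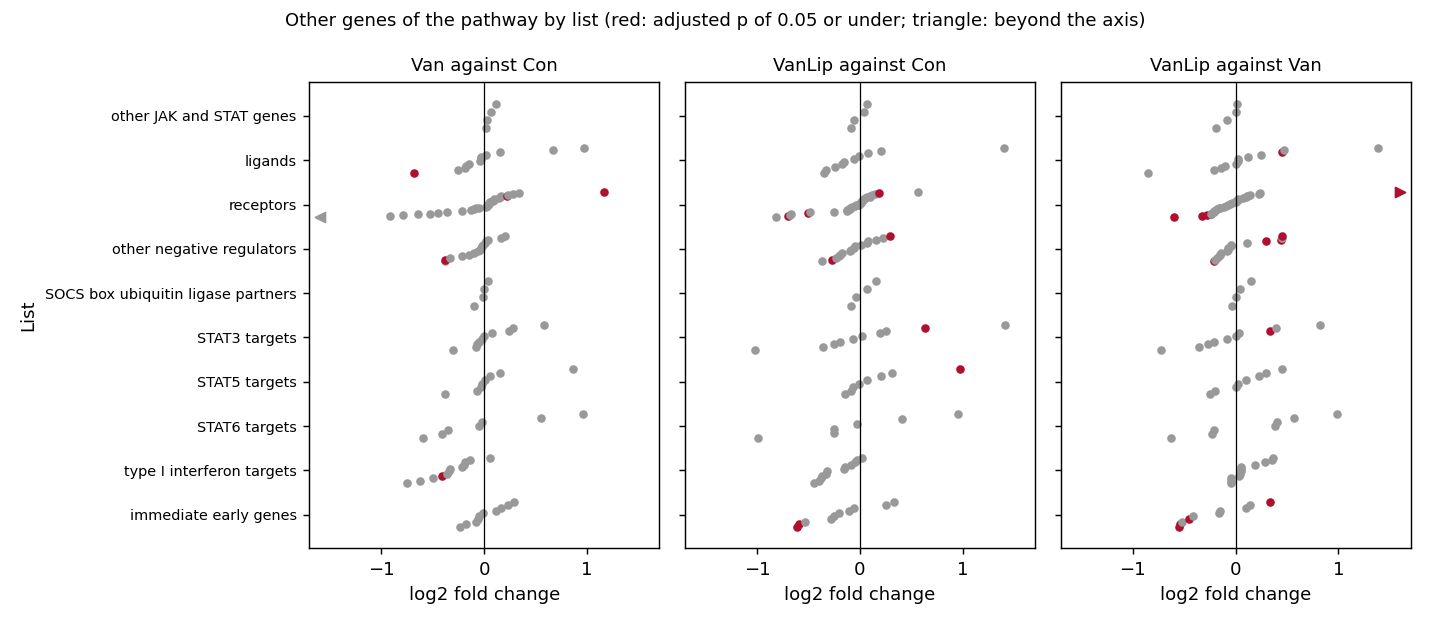
Log2 fold changes (horizontal axis) of the other pathway genes in the 3 comparisons, one point per gene in the row of its list (vertical axis), red where the DESeq2 adjusted p was 0.05 or under and a triangle where the value lies beyond the axis. Most genes lie near 0, and the interferon target row lies to the left in both comparisons with Con, with medians of -0.34 and -0.24.

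**Figure D5:**
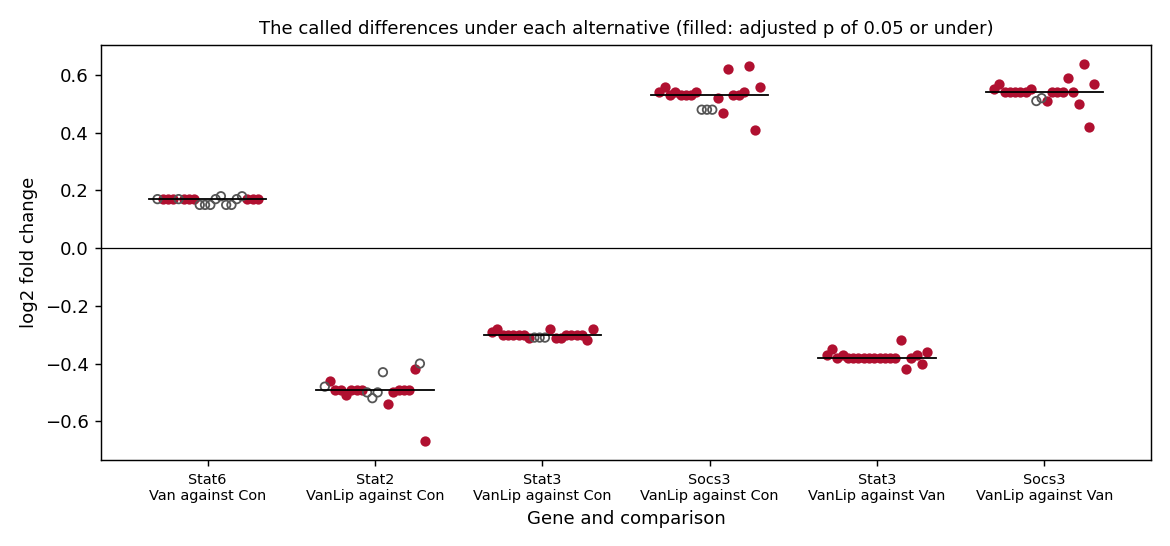
Log2 fold changes (vertical axis) of the 6 called differences among the 9 genes (horizontal axis) under each of 20 alternatives, filled where the adjusted p was 0.05 or under, with a line at the reported value. Stat3 for VanLip against Van is filled in 20 of 20, Socs3 in 18 and Stat6 for Van against Con in 9.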

How the data were processed

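RNA sequencing of splenic monocytes gave 9 libraries, grouped by the sample titles into Con, Van and VanLip (3 mice each). The authors built TruSeq stranded mRNA libraries, aligned paired reads to GRCm38 with HISAT2 2.2.1 and SAMtools 1.9 and estimated expression with StringTie 2.1.3. One table that the authors deposited holds FPKM, and the other deposited table holds expected counts that tximport derived from the same output, neither whole nor normalized. tximport assumes reads of 75 bases unless told otherwise, so the counts scale with read length. The annotation release is not given in the sources used here, and 99% of the genes above 0 matched GENCODE M21.

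Whole-number roundings of the expected counts were fitted in R 4.3.3 with DESeq2 1.42.0 (Wald test, median-of-ratios size factors, all 9 libraries, group as the only term, Benjamini-Hochberg adjustment over all genes, threshold of 0.05 on the adjusted p, two-sided). Intervals are 1.96 standard errors either side. Alternatives were edgeR 4.0.16 quasi-likelihood, TMM library sizes, at least 10 counts in at least 3 libraries, only the 2 groups compared, a replicate block, no independent filtering, fragments with VanLip thinned to the depth of the others, leaving out each of the 9 libraries, and limma 3.58.1 on quantile-normalized log2 FPKM with pseudocount 1, with pseudocount 0.1, or on genes averaging 1 FPKM or more. Conversion to fragments without thinning was added after seeing the data. The fits were tested on simulated data.

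The 9 genes and all lists were chosen with earlier results of these data known. Apart from the 9, pathway genes were named where called, up to 5 higher and 5 lower per comparison by adjusted p, with the 3 genes most like each called member. Levels were compared between genes in FPKM, with normalized counts per kilobase as an alternative for the order. The methods give 3 mice in each group and do not say outright that each library came from its own mouse. Cages or processing days are not given. One gene of the pathway lists is not reported here.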

Additional observations from a re-analysis of the deposited data

How the results depend on the processing

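Depth, and the read length inferred from the counts against the stated 100 bases, coincided with VanLip, so that group cannot be told apart from its sequencing. The intervals of Socs1 and Cish were wide with 3 mice per group, so small differences of these genes remain undecided. In Van against Con 1 of the 9 genes was called, against 2 with only the 2 groups compared and 0 with edgeR, the replicate block and each of the 3 limma settings, and 0 to 2 without single libraries. In VanLip against Con 3 were called, 0 in each limma setting and 2 to 3 without single libraries. In VanLip against Van 2 were called, 1 with limma at a pseudocount of 1 or 0.1, and 2 to 3 without single libraries. The cause was not tested. Ranking by normalized counts per kilobase in place of FPKM moved 5 ranks in Con, 3 in Van and 3 in VanLip, and leaving out a library moved 0 to 2. By counts per kilobase Stat6 came first and Socs3 stood above Stat3 in each group. Of 294 log2 fold changes of the 9 genes under the other alternatives 276 kept direction and call, 17 lost the call, 1 gained it and 0 reversed. Without single libraries 9 of 243 reversed, all of uncalled differences, with ranges of -0.02 to 0.48 (Socs1), -0.08 to 0.07 (Socs3) and -0.36 to 0.27 (Cish) in Van against Con, -0.08 to 0.42 (Socs1) and -0.62 to 0.02 (Cish) in VanLip against Con, and -0.01 to 0.12 (Jak2) and -0.14 to 0.05 (Socs1) in VanLip against Van. Of 480 values of the named pathway genes 338 kept their call and 142 lost it.

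Replicate numbers showed no pairing over all genes, since deviations of same-numbered libraries from their group means correlated at -0.06 to 0.12. Such a correlation cannot exclude a shared cage or processing day that acts on some genes, and neither is given. With the replicate block Stat6 in Van against Con was 0.17 (adjusted p = 0.144), and the block changed no other call among the 9 genes.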
